A study of Neodesmus pupukensis with 4 samples.

Results

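A small group of transcripts of the green microalga UTEX2341, grown in shake flasks, was far more abundant in the late than in the early libraries. The group was chosen on measured values. A sequence entered when its reads averaged 50 or more across the 4 libraries and when the smaller of its levels at 57 h and 88 h was at least 6 times the larger of its levels at 14 h and 45 h. Levels are RPKM, the read count scaled to the length of the sequence and to the library total that the files state. Of the 14905 assembled sequences, 11089 had that many reads and are called sequences over the read floor here, and 54 of these met the rule, which is 0.487%. Since the rule used the reads and the RPKM of every library, the late against early differences below describe how the group was chosen and were not tested.

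The strain carries the species name Neodesmus pupukensis in the sample labels and Chlorella minutissima in the design text. All 4 groups were cells of this strain, fed in batches and shaken at 25°C, and they differed in culture time, 14, 45, 57 or 88 h. Each time was represented by 1 library of total RNA, so no time has a replicate, and the labels do not say whether the 4 harvests came from the same flask. The series was set up to follow the expression of key enzymes beside lipid yield, and the label on lipid is the same for all 4 samples. The stated library totals were close, from 11874560 reads at 45 h to 12495251 at 14 h. Time and library therefore cannot be told apart, and the 95% intervals given here cover counting error only.

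A microalga in a flask often divides while light and nutrients are plentiful, and later slows as cells shade each other and nutrients run down. Whether this held here, where cells were fed in batches, was not tested. Green algae in slowing cultures are known for a broad change of their mRNA pool, in which messages for ribosomes and photosynthesis usually become scarcer while messages for nutrient uptake, stress protection and storage of starch and oil become more abundant. A message is measured here as its share of all reads, so a transcript can gain share because there is more of it or because other transcripts have become fewer. The files pair 0 of the 14905 identifiers with a gene name, so no member can be assigned to any of these functions. Each identifier is built from the words comp, c and seq with a number after each. Sequences sharing the comp number are called a component here and those sharing the comp and c numbers a subcomponent, units that usually stand for variants of a gene or for genes of similar sequence. No sequence of a member and no genome position was given, so members are described by their length, their level and their relatives, and identifiers are printed for 2 of them.

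The members had reads in the early libraries too. All 54 had reads at 14 h and at 45 h, from 3 reads upward at 14 h and from 7 upward at 45 h, so none was listed at 0 before the rise. At 14 h 2 members and at 45 h 4 members had fewer than 10 reads, and whether so few reads come from the member itself was not tested. Their median RPKM was 6.23 at 14 h and 6.85 at 45 h, and then 76.9 at 57 h and 72.1 at 88 h. The median RPKM over all sequences over the read floor was lower in the late libraries on this deposited scale, at 19.6, 19.6, 9.9 and 9.87 at the same times. At 14 h only 10 of the 54 members lay above that median and at 45 h 13 did, against 53 at 57 h and 53 at 88 h. The quartiles of the members were 2.88 and 14.99 RPKM at 14 h, and 27.9 and 188.7 at 88 h. All 54 were at least 2-fold higher at 57 h than at 45 h, as the rule requires, where 11.8% of those sequences were.

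**Figure D1:**
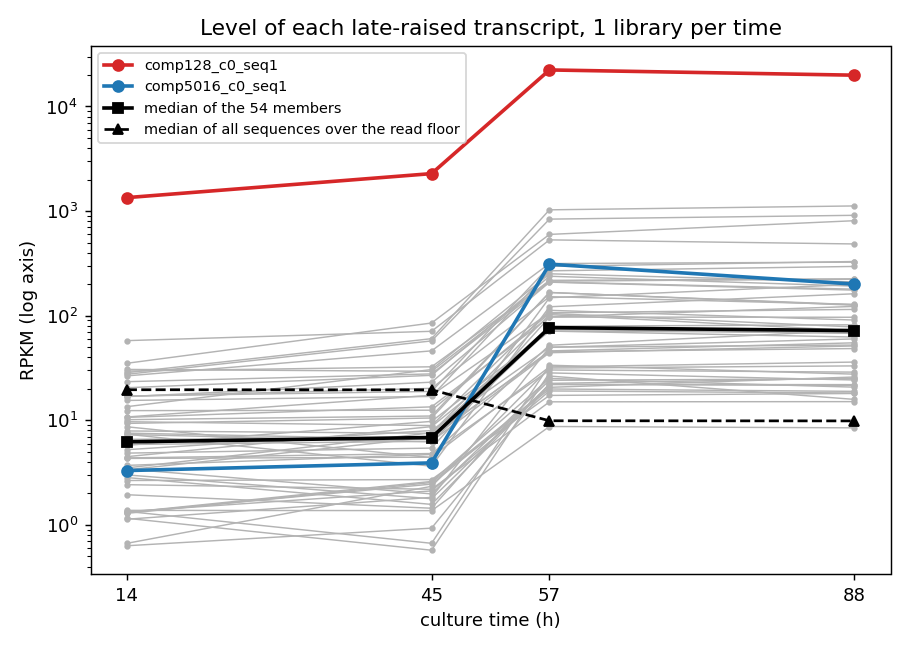
RPKM on a log axis against culture time in h for each of the 54 members (grey lines), with the 2 named members in colour, the median of the members (squares) and the median of all 11089 sequences over the read floor (triangles, dashed). Each point is 1 library, and the member lines are low at 14 h and 45 h and high at 57 h and 88 h, while the dashed median goes from 19.6 to 9.87.

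The most abundant member, comp128_c0_seq1, had the highest RPKM of all sequences in both late libraries. It is 902 bases long and alone in its component. In order of culture time the libraries held 15162, 24438, 244551 and 217016 reads of it. The matching RPKM values were 1345.3, 2281.6, 22350.5 and 19920.5. Both late libraries were high and both early ones far lower. By RPKM it ranked 67 among all sequences at 14 h, 21 at 45 h and 1 at both late times, and it was the only member among the 100 highest in each of the 4 libraries. The step from 45 h to 57 h was a log2 ratio of 3.29 (95% counting interval 3.27 to 3.31). Before that step it had already differed between the early libraries, with a log2 ratio of 45 h to 14 h of 0.76 (0.73 to 0.79).

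This transcript carried most of the reads of the group. It took 0.0901% of the reads counted on all sequences at 14 h, 0.151% at 45 h, 1.56% at 57 h (95% exact binomial interval 1.55 to 1.56%) and 1.41% at 88 h (1.41 to 1.42%). All 54 members together took 0.141%, 0.222%, 2.39% and 2.29% in the same order. Reads may be counted on several sequences, in the group and in the sum over all sequences. Keeping a member only where it was the most abundant sequence of its component left 31 members, which took 0.122%, 0.197%, 2.07% and 1.95%. The sum over all sequences was left unchanged there, so these shares are not freed of multiple counting. Components whose most abundant sequence is not a member dropped out. Without comp128_c0_seq1 the other 53 members took 0.0509%, 0.0711%, 0.836% and 0.874%. The order of the late libraries turns when it is left out, with 57 h above 88 h for all members and 88 h above 57 h for the other 53. The 10 members with the most reads at 88 h held 88.5% of the group's reads there.

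**Figure D2:**
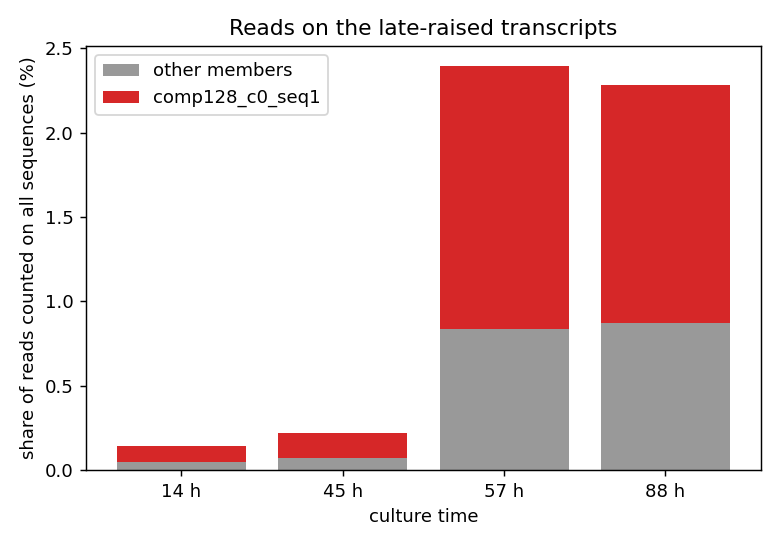
Share of the reads counted on all sequences, in percent, that fell on comp128_c0_seq1 (red) and on the other 53 members (grey) at each culture time, 1 library per bar. In order of time the bars reach 0.141%, 0.222%, 2.39% and 2.29%.

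The member with the largest ratio, comp5016_c0_seq1, is short, at 387 bases, and also alone in its component. Its reads numbered 16, 18, 1459 and 937 in order of time, or 3.31, 3.92, 310.8 and 200.5 RPKM. By RPKM it ranked 10052 and 9766 in the early libraries and 298 and 409 in the late ones. Its smaller late level was 51.2 times its larger early level (32.2 to 86.7), and the width of that interval comes from the 18 reads at 45 h. After the peak at 57 h it was lower at 88 h, with a log2 ratio of -0.63 (-0.75 to -0.51).

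Of the 54 members, 5 had a ratio of at least 20. Beside comp5016_c0_seq1 these were a sequence of 918 bases, one of 633 bases and a pair from the same component. The sequence of 918 bases had 13, 20, 557 and 581 reads at 14, 45, 57 and 88 h, and a ratio of 27.3 (17.5 to 45). The sequence of 633 bases had 5, 7, 173 and 193 reads and a ratio of 24.2 (11.5 to 61.1). The pair, of 1010 and 1176 bases, had 17 reads each at 14 h and 8 each at 45 h, then 412 and 405 reads at 57 h and 337 and 345 at 88 h. The counts of this pair are nearly equal, and whether the same reads were counted on both was not tested. In all 5, both late libraries were high and both early ones held 20 reads or fewer, which leaves the size of the ratio uncertain.

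Most of the group stood much closer to the limit of the rule. The median ratio of the 54 members was 7.72, with quartiles of 6.85 and 11.9, and 29 members lay below 8. For 30 members the whole counting interval lay at or above 6-fold, while for the other 24 it reached below. The same reads chose the members, and the pair of libraries compared was picked by its values. These limits therefore describe counting error and do not test which members exceed 6-fold. Among sequences outside the group, 37 over the read floor had an interval that reached 6-fold. The 3 members nearest the limit had ratios of 6, 6.15 and 6.15, and the 3 nearest sequences outside had 5.89, 5.89 and 5.83. The group is thus the upper end of a continuous range, in which 859 sequences had a ratio of at least 2, 328 of at least 3 and 176 of at least 4. At the lower edge of reads, the 3 scarcest members had means of 62.5, 73.8 and 77.2 reads. The 3 most abundant sequences under the floor with a ratio of at least 6 had 40.0, 38.8 and 38.2 reads, and 55 such sequences lay under the floor in all.

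After comp128_c0_seq1, the highest late levels belonged to a component with 2 members, of 2161 and 2136 bases. Over the 4 times the longer had 28.6, 60.3, 1028.2 and 1120.1 RPKM. The shorter had 27.5, 57.4, 837.9 and 911.2 RPKM. Both were higher in every later library than in the one before it, with the main difference between 45 h and 57 h. A sequence of 1017 bases had the same course at a lower level, with 35.1, 85.1, 598.6 and 809.2 RPKM. A sequence of 1909 bases reached 530.7 RPKM at 57 h and 485.2 at 88 h from 57.8 and 70.9 RPKM in the early libraries. In all, 21 members had at least 100 RPKM in both late libraries. At the other end, the lowest member, of 3137 bases, had 1.38, 1.37, 8.72 and 8.47 RPKM.

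Within the early pair, which the rule does not order, members were more often higher at 45 h. The rule takes the larger of the early levels, so it selects against a large early difference among members but not in the background. Of the 54, 39 had a log2 ratio of 45 h to 14 h above 0, or 72.2%, against 47.7% of all sequences over the read floor. The median log2 ratio was 0.20 over members and -0.04 over those sequences. At 45 h a 2-fold or greater excess was seen in 7 members, or 13%, where 9.61% of all sequences were, and 1 member was lower by as much, where 5.37% were. Judged by counting intervals, 19 members were higher at 45 h, or 35.2% against a background of 34.1%, and 2 were lower, or 3.7% against 38.3%. The members' median of 102.5 reads at 14 h and 83.5 at 45 h, against 493 and 463 for all sequences over the read floor, widens their intervals. By component, all members were higher at 45 h in 28 of the 37 components and all were lower in 7, with both signs in 2.

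The 7 members that were at least 2-fold higher at 45 h came from 6 components. The sequence of 1017 bases had the clearest difference, a log2 ratio of 1.28 (1.12 to 1.44), and was the only member whose whole interval lay beyond 2-fold, where 6.29% of all sequences did. The pair of 2161 and 2136 bases had 1.08 (0.95 to 1.21) and 1.06 (0.93 to 1.19). The largest value, 1.66, belonged to a sequence of 360 bases with 3 reads at 14 h and 10 at 45 h, and its interval of -0.15 to 4.31 includes no change. The opposite course was seen in a pair of 1071 and 1249 bases from the same component. The longer had 115, 54, 1845 and 2444 reads in order of time, with a log2 ratio of 45 h to 14 h of -1.01 (-1.51 to -0.54). The shorter had 116, 56, 1930 and 2575 reads and a log2 ratio of -0.97 (-1.46 to -0.50). These are the 2 members whose intervals lay below no change, and both then had their highest level at 88 h.

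Within the late pair differences were small in size. The rule takes the smaller of the late levels, so it selects against a large difference between them. The median log2 ratio of 88 h to 57 h was -0.0045 over members, with quartiles of -0.23 and 0.12, and -0.07 over all sequences over the read floor, with quartiles of -0.25 and 0.15. None of the 54 was 2-fold apart in either direction, where 1.51% of all sequences were higher and 0.316% lower by that much. The share of 0% is near the background. Higher at 88 h by any amount were 26 members, or 48.1%, against 41.4% of all. By counting intervals, 13 members were higher at 88 h, or 24.1% against 15.6% of all sequences. Another 19 were lower, or 35.2% against 26.0%. Together 32 members, or 59.3%, differed beyond counting error, against 41.6% of all sequences over the read floor. The members' median of 1017 reads at 57 h and 929 at 88 h, against 257 and 255, narrows their intervals. The extremes were a sequence of 518 bases at 0.47 (0.26 to 0.68) and one of 700 bases at -0.74 (-1.06 to -0.43). The first had 328 reads at 57 h and 452 at 88 h, and the second had 225 and 134.

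The members followed several courses over both pairs, read by counting intervals and set beside all sequences over the read floor. Higher at 45 h than at 14 h and lower at 88 h than at 57 h were 10 members from 8 components, comp128_c0_seq1 among them. These are 18.5%, against 11% of all. Another 4, from 3 components, were higher at each of these steps, including the sequences of 2161, 2136 and 1017 bases, or 7.41% against 6.81%. Neither step exceeded counting error for 17 members from 13 components, or 31.5% against 18.5%. Members of the same component may share reads. The pair of 1071 and 1249 bases, lower at 45 h and higher at 88 h, is 3.7%, against 5.71%. In the other members 1 step exceeded counting error. Depth differs between members and background, as given above, and its part in these shares was not tested.

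**Figure D3:**
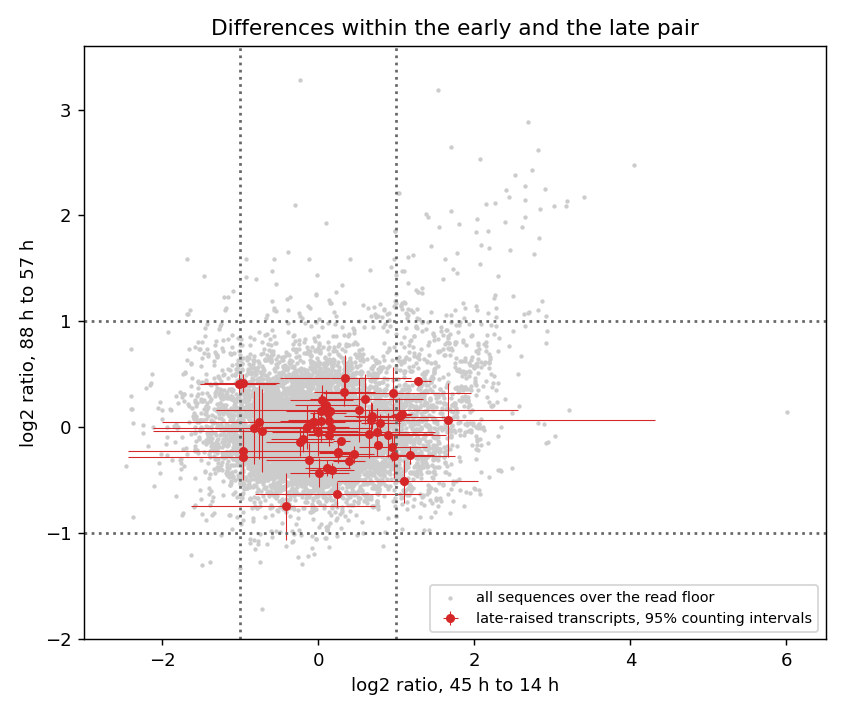
Log2 ratio of 45 h to 14 h (horizontal) against log2 ratio of 88 h to 57 h (vertical) for the 54 members with 95% counting intervals (red) over all sequences over the read floor (grey), with dotted lines at 2-fold. The red points lie mostly right of 0, with a median of 0.20, and between -0.74 and 0.47 on the vertical axis.

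The 54 members came from 37 components, so they are fewer independent observations than their number. A single sequence made up 18 of these components, or 48.6%, against 52.8% of the components with a sequence over the read floor. In 13 components 2 or more sequences were members, 30 members in all, and the largest such count was 4. In 8 of the 13 no library had a member with more than 1.5 times the reads of another member, so the same reads may have been counted on each. Among the members of each of these 13 components the ratios were close, the largest being 1.04 times the smallest in the median component. Only members are compared there, all at 6-fold or above by the rule. Other sequences of the same components, described below, often had far lower ratios. The widest difference was in a component of 2 sequences. The sequence of 1071 bases there had 65, 69, 1260 and 1250 reads and a ratio of 17.8 (14.0 to 23.0), and its partner of 2286 bases had 226, 204, 2199 and 2261 reads and a ratio of 10.0 (8.74 to 11.5). Those counting intervals do not overlap.

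Relatives outside the group were counted by subcomponent. In the 37 components 44 sequences were not members, 25 in the subcomponent of a member and 19 in another subcomponent of the same component. Of the 25 in the same subcomponent, 22 were over the read floor, and 21 of those 22 had both late levels above both early levels, 17 of them by at least 2-fold. These are 95.5% and 77.3%, against 21.9% and 7.75% of all sequences over the read floor. A single component of 12 sequences held 11 of the 22, with ratios from 1.6 to 4.72. Its 1 member had a ratio of 6.15 (4.6 to 8.37), close to the limit of the rule. Reads may be counted on several sequences of a subcomponent, so the relatives are not independent of the members or of each other. The ratios of all 25 relatives in the same subcomponent ran from 0.619 to 12.4 with a median of 3.38. Of the 19 in another subcomponent, which belong to 4 components, 13 had a ratio below 1, or 68.4% against 78.1% of all sequences over the read floor, which is near the background. A single component held 14 of the 19, and 10 of the 13. The other 5 sequences came from 3 components, with 3 of them below 1.

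The sequences of another subcomponent with a ratio below 1 belonged to components of 3, 4 and 16 sequences. In the component of the 2161-base and 2136-base members, the third sequence, of 1417 bases in another subcomponent, had 247, 368, 110 and 134 reads at 14, 45, 57 and 88 h. Its level was thus lower late, while theirs was higher. In the component of 4 sequences, the members of 1352 and 1088 bases had 346 and 229 reads at 14 h, and 3132 and 2308 at 88 h. The other 2 sequences, of 6361 and 6042 bases, had 5091 and 5102 reads at 14 h, and 1437 and 1452 at 88 h. In the component of 16 sequences the pair of 1071 and 1249 bases stood alone in its subcomponent, and the other 14 sequences had ratios between 0.143 and 1.54.

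**Figure D4:**
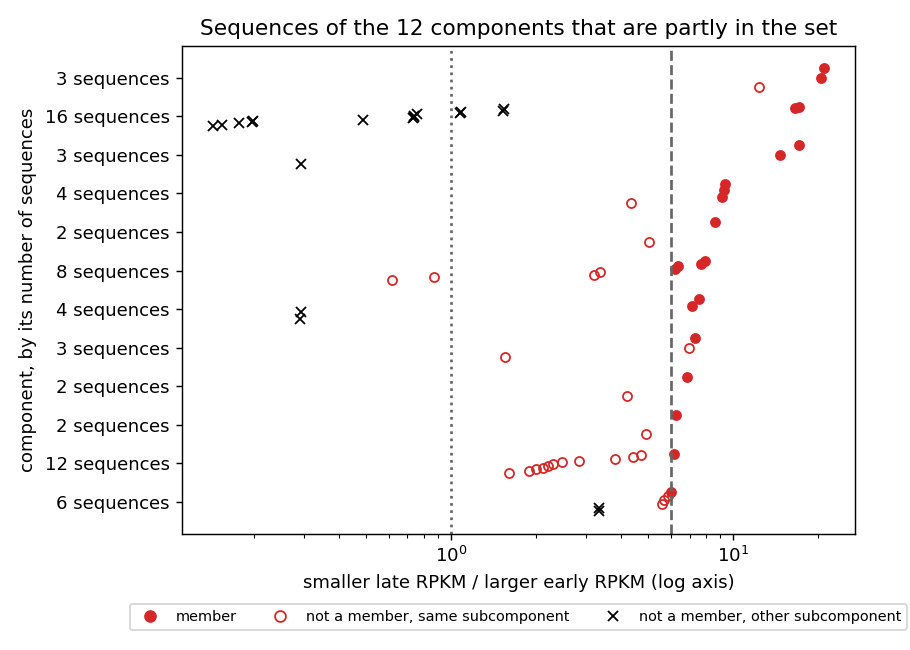
Ratio of the smaller late to the larger early RPKM on a log axis for every sequence of the 12 components that were partly in the group, 1 component per row, with lines at 1 and 6. Members (filled) lie at or right of 6. Sequences of the same subcomponent (open) range from 0.619 to 12.4, and those of another subcomponent (crosses) range from 0.143 to 3.34.

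The members were short, a property the rule did not use directly. Their median length was 1071 bases, with quartiles of 710 and 1540, against 2412 bases, with quartiles of 1379 and 4073, for all sequences over the read floor. Below 1000 bases were 24 members, or 44.4%, against 13.9% of all, and below 500 bases 7, or 13%, against 1.93%. Only 6 members, or 11.1%, exceeded 2000 bases, where 58.5% of all did. With the most abundant sequence taken from each component, 31 members had a median of 902 bases and 4851 sequences one of 1870 bases, so the difference was present with 1 sequence per component too.

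When those 11089 sequences were divided at the quartiles of length, 37 of the 54 members lay in the shortest class, 15 in the second, 2 in the third and 0 in the longest. These are 1.33%, 0.542%, 0.0721% and 0% of each class. The mirrored rule, with the smaller early level at least 6 times the larger late level, chose 610 sequences with a median of 1671 bases. These made up 8.47%, 6.86%, 3.89% and 2.78% of the classes, so a higher share among short sequences was seen in both directions. Length enters the read floor, since a short sequence needs a higher RPKM for the same reads, and its part in the result was not tested.

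**Figure D5:**
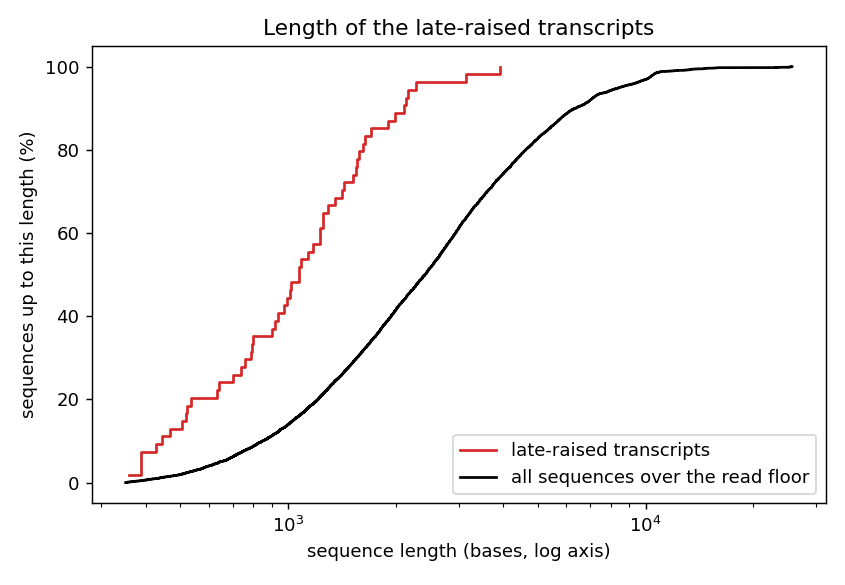
Cumulative percent of sequences up to each length in bases (log axis) for the 54 members (red) and all 11089 sequences over the read floor (black). The red curve lies to the left, with a median of 1071 against 2412 bases.

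How many sequences met the rule depended on the scale of the libraries. On the deposited scale 54 sequences were raised 6-fold and 610 lowered 6-fold by the mirrored rule. The median log2 ratio of 57 h to 45 h was -0.76 over all sequences over the read floor. It was 3.21 over members, which lies in the direction the rule selects. With TMM scaling, which places the typical sequence near no change, that median was -0.06, and 223 sequences were raised and 197 lowered. All 54 members were among the 223, and their ratios on that scale ran from 9.98 to 86.4. That scaling moves all ratios by nearly the same factor, so it could not turn the direction of a member. Which direction held more sequences differed between the scales.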

How the data were processed

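RNA sequencing of 4 culture times, 1 library per time, was used as deposited. Per the labels, total RNA was extracted with TRIzol, and libraries followed standard Illumina protocols. Per the submitters' processing notes the aligner BWA was used, and no version goes with it. Not given in the sources used here are the assembler, read filters, strandedness and the treatment of multiply matching reads. The deposited files give a read count per assembled sequence, the library total, the length and RPKM. The RPKM that the authors deposited equalled the count scaled to length and stated total, within 3.8e-11. Counts summed to 16829055, 16192136, 15690090 and 15376509 reads at 14, 45, 57 and 88 h, more than the stated totals of 12495251, 11874560, 12130407 and 12077745, so reads may be counted on several sequences.

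The members and all comparisons were chosen with earlier results of these data known. With 1 library per time there are no residual degrees of freedom between times, so no p-value was calculated. Log2 ratios within a pair of libraries used reads plus a pseudocount of 0.5 over the stated total, and a 2-fold difference was counted. Intervals are 95% exact conditional binomial (Clopper-Pearson) for ratios and exact binomial for shares. They treat reads as independent, which PCR copies and shared reads break. Intervals of the smaller late to the larger early level also treat the chosen pair of libraries as fixed in advance. Backgrounds are the 11089 sequences whose reads averaged 50 or more. The code for the rule and interval was run on simulated data, independent Poisson counts with equal library totals. Those data hold no shared reads, no PCR copies and no planted ratios near 6-fold, so the run does not bear on these limits. Identifiers were printed for the member with the highest mean late RPKM and the one with the largest ratio. The sequences just outside the rule are the 3 nearest. Alternatives were other folds, floors, pseudocounts and library sizes (edgeR TMM, median-of-ratios, sum of counts), 1 sequence per component and limits on the counting interval. The tools were edgeR 4.0.16 in R 4.3.3 for scaling factors, and scipy 1.17.1, numpy 2.4.6, matplotlib 3.10.9 and pandas 2.3.3 in Python 3.11.15. The mirrored rule, the split by subcomponent and the joint courses of both pairs were chosen after seeing the data. The series holds 6070 components and 6216 subcomponents.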

Additional observations from a re-analysis of the deposited data

How the results depend on the processing

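Shares below are of all counted reads at 14, 45, 57 and 88 h. A fold of 4 gave 176 members with 0.747, 1.11, 7.71 and 7.35%, a fold of 8 gave 25 with 0.111, 0.181, 2.07 and 1.96%, and a fold of 10 gave 17 with 0.0188, 0.0283, 0.49 and 0.528%. The last leaves out comp128_c0_seq1, and with it the 57 h share falls below that at 88 h. TMM gave 223 members with 1.03, 1.43, 9.36 and 8.94%, median-of-ratios factors 222 with 0.994, 1.41, 9.24 and 8.78%, and the sum of counts 60 with 0.185, 0.264, 2.68 and 2.58%. Each of these 3 kept all 54 members. Requiring the lower counting limit at 6-fold left 30 with 0.128, 0.207, 2.28 and 2.17%, and 1 sequence per component left 31 with 0.122, 0.197, 2.07 and 1.95%. A mean of 10 reads gave 88 members (2.4% at 57 h, 2.3% at 88 h) and no floor 109 (2.41 and 2.3%). A mean of 20 reads gave 75 (2.29% at 88 h) and one of 200 reads 41 (2.37 and 2.27%). A pseudocount of 0.5 reads gave 53 (2.39 and 2.28%) and one of 5 reads 46 (0.138, 0.218, 2.37 and 2.26%). Without comp128_c0_seq1, a choice made after seeing the data, the shares were 0.0509, 0.0711, 0.836 and 0.874%. The median log2 ratio of 88 h to 57 h over members, -0.0045 as reported, was 0.052 with TMM, 0.0692 with median-of-ratios factors, 0.0183 with the sum of counts, 0.0479 with 1 member per component and 0.00628 with a mean of 200 reads, so its sign carries no information. The 7 members 2-fold higher at 45 h became 4 with a pseudocount of 5 reads and 1 with the whole interval past 2-fold. The 1 member 2-fold lower became 0 in both, with TMM and with 1 member per component. Of 126 alternative values 57 stayed within a range set for each, 64 lay outside it and 5 changed sign. For shares the range was the binomial interval, and for medians an interval taken from the sorted member values. The latter treats members as independent, which those of the same component are not. For counts it was a fixed factor, wide enough that 75 and 41 members against 54 stayed within it. The cause of the other differences was not tested beyond what each setting does by construction. Early counts limit the ratios of some members, since 19 had fewer than 50 reads at 14 h. Leaving out a library was not done, as each time rests on a single one. No paired analysis was possible because replicates are lacking.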
